A study of Homo sapiens with 24 samples.

Results

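The comparison asked whether light changed gene expression in wild-type human embryonic stem cells differently when engineered neighbours were present. For each gene, the light effect in wild-type cells cultured alone was subtracted from the light effect in wild-type cells that had shared a dish with engineered cells. Of the 24 libraries of the series, 12 entered this difference of differences, in 4 groups of 3. Of 28297 genes in the table, 18913 reached a normalised read count of at least 10 in at least 3 of these 12 libraries and were tested.

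All 4 groups were cells of H9, an established human embryonic stem cell line, grown in E8 medium and sequenced as bulk RNA. The wild-type cells carried a transcribed eGFP and a neomycin resistance gene (NeoR), as their reads for both features show. Their neighbours, the optoWnt cells, expressed a Cry2_LRP6c_2A_mCherry construct with a puromycin resistance gene (PuroR). In it a light-sensitive plant cryptochrome is joined to the tail of the Wnt co-receptor LRP6. Monocultures of wild-type cells (wt_dark and wt_light) were compared with GFP-positive cells sorted by flow cytometry from a 1:1 mixture of wild-type and optoWnt cells (sorted_GFP_dark and sorted_GFP_light). Dark dishes received no light, and illuminated dishes received 0.8 µW/mm2 for 48 h. Each replicate pooled several wells, and the design text mentions sorting only for the co-cultures. Sorting and the presence of neighbours thus went together and cannot be told apart in the difference of light effects. Whether sorting changed a response to light was not tested. No statement was found on whether the engineered cells were a single clone. The labels name the same line for the optoWnt cells.

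As background, canonical Wnt signalling stabilises β-catenin, and strong Wnt input moves human pluripotent cells towards a primitive-streak-like state marked by the T-box factors TBXT (brachyury) and EOMES. Cells that leave pluripotency along this path are known to secrete ligands of the Wnt, NODAL and BMP families. BMP ligands act through SMAD1 and SMAD5 and switch on the ID genes, whose products block helix-loop-helix factors, together with feedback inhibitors such as SMAD6 and BAMBI. NODAL and its relatives act through SMAD2 and SMAD3, and the LEFTY proteins restrain them.

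The 12 libraries held 30693033 to 56639833 gene-assigned reads. In monoculture, depth ran with light: the 3 dark libraries had 30693033 to 34291124 assigned reads and the 3 illuminated ones 45763662 to 54707558. The library sorted_GFP_light c was the shallowest of its group, with 31884623. Libraries stood apart in 2 ways. The wt_dark 1 and sorted_GFP_light b libraries had a GC content of 33.73% and 34.15%, against 50.03% to 51.47% in the other 10 libraries. In read counts, wt_light 2 differed from wt_light 1 and 3 by a chi-square of 51.64 and 42.58 per degree of freedom, where 1 and 3 differed by 5.4. Likewise sorted_GFP_light a differed from b and c by 19.26 and 24.71, where b and c differed by 6.99. No 2 libraries agreed within sampling noise. Of the 99 genes named here whose difference passed the test described next, 29 lost the call without both low-GC libraries and 3 without wt_light 2 and sorted_GFP_light a. EOMES and the non-coding gene LINC02593 fell below the filter in the first of these fits and were not tested there. LINC02593 was not tested in the second either. In read counts wt_dark 1 differed from wt_dark 2 and 3 by 4.33 and 4.3, where 2 and 3 differed by 5.0. Both fits rest on fewer libraries, and the reason for a lost call was not tested.

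Pluripotent cells were recognisable in all 4 groups. Mean normalised counts of LIN28A, an RNA-binding protein of pluripotent cells, were 74876 in wt_dark, 73758 in wt_light, 72431 in sorted_GFP_dark and 70404 in sorted_GFP_light. LIN28A was also at 40478 in the illuminated mCherry-sorted neighbours. SOX2 was at 9301, 8702, 8570 and 7437 in the same 4 groups and at 49.6 in those neighbours. NANOG was at 3761, 4318, 4006 and 6193, and at 27.9 in those neighbours. Mean counts of eGFP in the 4 groups were 14532, 13035, 13540.0 and 13259. Reads assigned to the Cry2_LRP6c_2A_mCherry feature were at 382, 272, 370.2 and 396, against 57087 in the illuminated mCherry-sorted neighbours. That low level was of the same size with and without engineered cells in the dish. In the dark, 4 of 18913 genes (0.0211%) differed between sorted_GFP_dark and wt_dark. The transcription factors EGR1 and FOS and the cell-cycle inhibitor CDKN1A were higher in the sorted cells, and NCOA5 was lower.

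The light effect differed between cultures for 478 of the 18913 genes (2.53%) at a Benjamini-Hochberg adjusted p under 0.05 (limma). It was more positive in co-culture for 252 genes (1.33%) and more negative for 226 (1.19%). Without adjustment, 2724 genes had a p under 0.05, and other methods gave from 493 to 2617 calls: 493 (2.61%) by edgeR and 780 (4.12%) by DESeq2 on the recovered reads, and 2617 (13.8%) by limma with array weights. The median log2 difference over all tested genes was -0.004, and it was at least 1 in size for 104 of the 252 and 97 of the 226. Most of the change lay in the co-culture. Of the 252 genes, 222 rose with light in co-culture by themselves, and of the 226, 205 fell. Taken alone, the co-culture light effect passed for 1275 genes (6.74%), 572 up (3.02%) and 703 down (3.72%), and the monoculture light effect for 12 genes (0.0634%). In these counts the difference and the co-culture effect share libraries, so they describe 1 set of values in 2 ways. The 3 sorted_GFP_light libraries lay above all 9 other wild-type libraries for 238 of the 252 genes, where 5.49% of all genes did, and below them for 197 of the 226, where 5.13% did. The 252 and 226 genes were chosen with these same libraries, so such a separation follows largely from the choice and is no separate support. Without wt_dark 1 and sorted_GFP_light b, 109 genes were more positive and 104 more negative. Without wt_light 2 and sorted_GFP_light a, the counts were 621 and 626. Over fits that each left out 1 library, they ran from 153 to 321 and from 138 to 267. They were lowest without sorted_GFP_dark b. With wt_dark 2 or sorted_GFP_dark c left out, the more positive genes numbered 155 and 156, and without wt_dark 3 the more negative ones numbered 149.

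**Figure D1:**
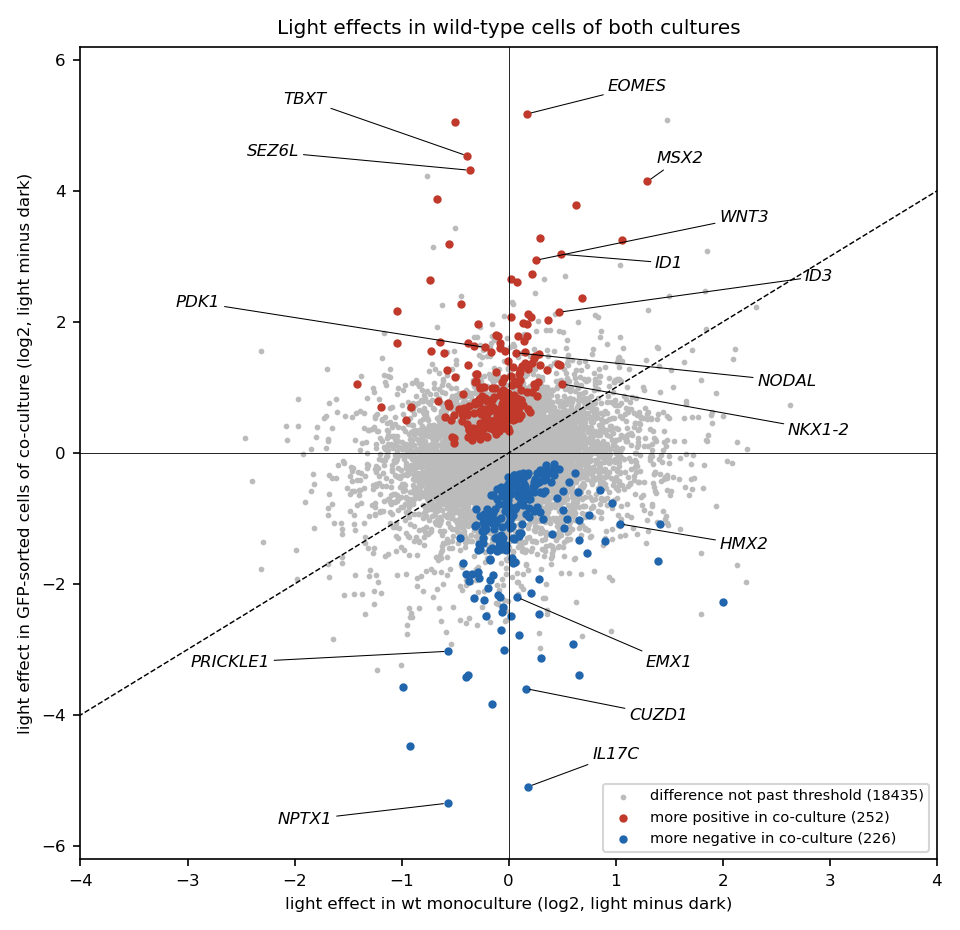
Light effect of each of the 18913 tested genes (log2, illuminated minus dark) in wild-type monoculture (x axis) and in GFP-sorted wild-type cells of co-culture (y axis); the dashed line marks equal effects. Red points (252 genes) and blue points (226 genes) differ between the cultures at an adjusted p under 0.05, and they lie mostly along the vertical axis, with little change in monoculture.

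BMP targets and feedback inhibitors rose in the illuminated co-culture. Of the 15 listed ligands, antagonists and targets, all of which were tested, the light effect was more positive in co-culture for 8 and more negative for 1. The median log2 difference of the 15 was 1.23, against -0.004 for all genes. The count of more positive members was 7 or 8 in every fit that left out 1 library, and 7 of 14 without both low-GC libraries. For 4 of the 15, MSX2 among them, only the illuminated co-culture libraries carried the gene past the filter on low values, and 7 of the other 11 were more positive. ID1 (ENSG00000125968; GRCh38 chromosome 20, 31605283 to 31606515, plus strand) had normalised counts of 1380.1, 1347 and 1514 in the dark monocultures and 1833, 2367 and 1793 in the illuminated ones. In co-culture they were 1779.8, 1490.4 and 1419.6 in the dark and 11387, 12580.0 and 14523 under light. All 3 illuminated co-culture libraries were thus far above the other 9, an 8.21-fold rise over dark co-culture. The log2 difference of light effects was 2.55 ± 0.16 (SE, n = 3 per group, adjusted p = 2.94e-08). ID3 (ENSG00000117318; GRCh38 chromosome 1, 23557918 to 23559794, minus strand) rose in both cultures. Its counts went from 5223, 4955 and 5024 to 6629.6, 7634 and 6873 in monoculture and from 4631, 4324 and 4372 to 17687, 20075 and 21613 in co-culture. The difference was 1.68 ± 0.11 (adjusted p = 4.19e-08).

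ID2 had 353, 386 and 379 in dark and 2086, 1605 and 2150.3 in illuminated co-culture, with a difference of 1.68 ± 0.19 (adjusted p = 3.09e-05). ID4 went from 126, 106 and 107 to 726, 707 and 641 there, with a difference of 2.53 ± 0.29 (adjusted p = 2.55e-05). Neither gene's illuminated co-culture values overlapped those of the other groups. BAMBI, a decoy receptor that dampens BMP and TGF-β signals, stood at 599.9, 625 and 664 in dark and 632, 737 and 643 in illuminated monocultures. In co-culture it went from 726, 587 and 809 to 2283, 2333 and 2662 (3.43-fold), and the difference was 1.698 ± 0.16 (adjusted p = 3.25e-06). The inhibitory SMADs were also in the group: SMAD6 went from 228, 271 and 253 to 692, 723 and 686 in co-culture (difference 1.23 ± 0.23, adjusted p = 0.00494) and SMAD7 from 1049, 1125 and 959 to 2809.7, 2747 and 2416 (difference 0.86 ± 0.13, adjusted p = 0.000968). SMAD7 is also a target of TGF-β and NODAL signals. The homeobox gene MSX2 was near the floor elsewhere and at 195, 176 and 162 in illuminated co-culture. Its difference of 2.85 ± 0.75 was just past the threshold (adjusted p = 0.0485) and lost the call in 10 of 12 fits that left out 1 library (adjusted p up to 0.129) and without both low-GC libraries (0.158).

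Among the ligands, BMP2 fell in co-culture, from 141, 91.6 and 104 to 44.4, 57.5 and 40.4, with a difference of -1.33 ± 0.32 (adjusted p = 0.0291). That call was lost in 9 of the 12 single-library fits, at an adjusted p of up to 0.0928, and without both low-GC libraries (0.0674). BMP4 had 137, 162 and 181 in dark and 246, 254 and 326 in illuminated co-culture. Its co-culture effect of 0.78 ± 0.19 passed the threshold (adjusted p = 0.0158), and its difference of 0.69 ± 0.27 did not (adjusted p = 0.228). In the illuminated neighbours BMP4 was at a mean of 17419 and BMP2 at 5471. The BMP antagonist NOG, with 36.1, 38.6 and 10.8 in illuminated co-culture, also did not pass (adjusted p = 0.529).

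Upstream sequences were searched for letters bound by the factors of these pathways, and 7 of these sequences are shown. ID1, WNT3 and PDK1 had the lowest p of their groups and hold no match. BAMBI, SP5, LDHA and PGK1 were picked because they do, so the printed set is richer in matches than the groups. The windows are the 250 bases before the start of the first listed RefSeq transcript (GRCh38.p14). Printed stretches leave out every annotated GENCODE exon, and capitals mark a whole match on either strand. GGCGCC is a GC-rich letter run to which SMAD1 and SMAD5 bind, ATCAAAG a core of TCF and LEF sites, and ACGTG the core of hypoxia response elements. ACGTG overlaps itself in CACGTG, which then counts on each strand. Of 35116 RefSeq windows of the same length, 16.4% held GGCGCC, 2.26% held ATCAAAG and 18.5% held ACGTG.
ID1 (chr20:31605039-31605282, plus strand): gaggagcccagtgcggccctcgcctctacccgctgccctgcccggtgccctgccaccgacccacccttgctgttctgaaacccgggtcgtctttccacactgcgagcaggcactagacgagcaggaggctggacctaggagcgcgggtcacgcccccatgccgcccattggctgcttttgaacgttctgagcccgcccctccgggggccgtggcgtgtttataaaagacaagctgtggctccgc
WNT3 (chr17:46818761-46818942, minus strand): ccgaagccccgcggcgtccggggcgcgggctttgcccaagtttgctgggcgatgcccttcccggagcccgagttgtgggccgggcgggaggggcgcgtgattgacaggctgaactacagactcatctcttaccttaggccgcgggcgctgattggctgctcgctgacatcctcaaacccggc
PDK1 (chr2:172555123-172555372, plus strand): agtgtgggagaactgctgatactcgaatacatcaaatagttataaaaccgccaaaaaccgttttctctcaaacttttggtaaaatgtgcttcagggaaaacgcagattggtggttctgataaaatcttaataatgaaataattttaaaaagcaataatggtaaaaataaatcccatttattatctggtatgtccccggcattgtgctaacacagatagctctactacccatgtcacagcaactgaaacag
BAMBI (chr10:28677271-28677341, plus strand): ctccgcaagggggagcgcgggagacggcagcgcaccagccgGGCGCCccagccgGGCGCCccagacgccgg
SP5 (chr2:170715087-170715336, plus strand): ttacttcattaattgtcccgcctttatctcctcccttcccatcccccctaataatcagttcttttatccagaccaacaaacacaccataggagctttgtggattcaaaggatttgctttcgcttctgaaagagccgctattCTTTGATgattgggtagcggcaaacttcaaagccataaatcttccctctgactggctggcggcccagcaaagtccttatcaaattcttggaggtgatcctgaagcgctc
LDHA (chr11:18394313-18394387, plus strand): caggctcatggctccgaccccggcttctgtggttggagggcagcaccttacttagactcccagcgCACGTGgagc
PGK1 (chrX:78103998-78104173, plus strand): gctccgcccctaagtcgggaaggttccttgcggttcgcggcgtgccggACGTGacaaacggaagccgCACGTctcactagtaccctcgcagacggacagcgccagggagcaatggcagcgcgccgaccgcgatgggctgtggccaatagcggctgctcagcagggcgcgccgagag
GGCGCC was in the window of 1 of 7 BMP-responsive genes (ID1, ID2, ID3, ID4, BAMBI, SMAD6 and MSX2), that of BAMBI, with 3 matches of which 2 are printed whole. ATCAAAG was in 1 of 4 windows (WNT3, EOMES, TBXT and SP5), on the minus strand of SP5. ACGTG was in 3 of 8 windows of the hypoxia and glycolysis genes that passed the test: BNIP3, LDHA and PGK1. A match describes the letters only, and no match says nothing about a factor outside these windows.

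NODAL signalling genes formed the second group. Of 13 listed genes 12 were tested, with 7 more positive and 1 more negative in co-culture, and their median difference was 0.83. Fits without 1 library gave 5 to 8 more positive members, and leaving out both low-GC libraries gave 4. For 1 of the 12 only the illuminated co-culture libraries carried it past the filter, and 6 of the other 11 were more positive. NODAL (ENSG00000156574; GRCh38 chromosome 10, 70432315 to 70447951, minus strand), the ligand, had 614, 459 and 576 in dark and 516, 623 and 578 in illuminated monocultures. In co-culture it rose from 533, 534 and 514 to 1412, 1571 and 1602, 2.9-fold, with no overlap between illuminated co-culture and the rest. The difference was 1.47 ± 0.16 (adjusted p = 2.02e-05). GDF3, a ligand of the same family, rose 3.95-fold in co-culture, from 330.1, 271 and 283 to 1038, 1348 and 1106. Its monoculture values were 336, 329.8 and 370.1 in the dark and 361, 455 and 359.6 under light, and the difference was 1.798 ± 0.19 (adjusted p = 9.83e-06). Both are known to signal with the co-receptor TDGF1. In the illuminated neighbours NODAL was at a mean of 513 (SD 406) and GDF3 at 35.7. The means in sorted_GFP_light were higher, at 1528 and 1164. TDGF1 itself moved the other way, from 17903, 19121 and 20488 to 16337, 14095 and 14724 in co-culture, with a difference of -0.45 ± 0.11 (adjusted p = 0.0313). Its call was lost in 7 of the 12 single-library fits (adjusted p up to 0.112), and without both low-GC libraries it was 0.196.

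Among the NODAL inhibitors, LEFTY1 had 351, 404 and 342 in dark and 647, 684 and 695 in illuminated co-culture (difference 0.84 ± 0.17, adjusted p = 0.00871). It did not pass in a fit of all 24 libraries (adjusted p = 0.639) or without both low-GC libraries (0.0846). LEFTY2, a close copy with which LEFTY1 may share reads, had 585, 591 and 607 and 679, 711 and 713, and its difference of 0.21 ± 0.16 did not pass (adjusted p = 0.586). The activin antagonist FST went from 237, 272 and 289 to 572, 547 and 574, with a difference of 0.81 ± 0.199 (adjusted p = 0.0331) that was lost in 10 of the 12 single-library fits (up to 0.104) and without both low-GC libraries (0.111).

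**Figure D2:**
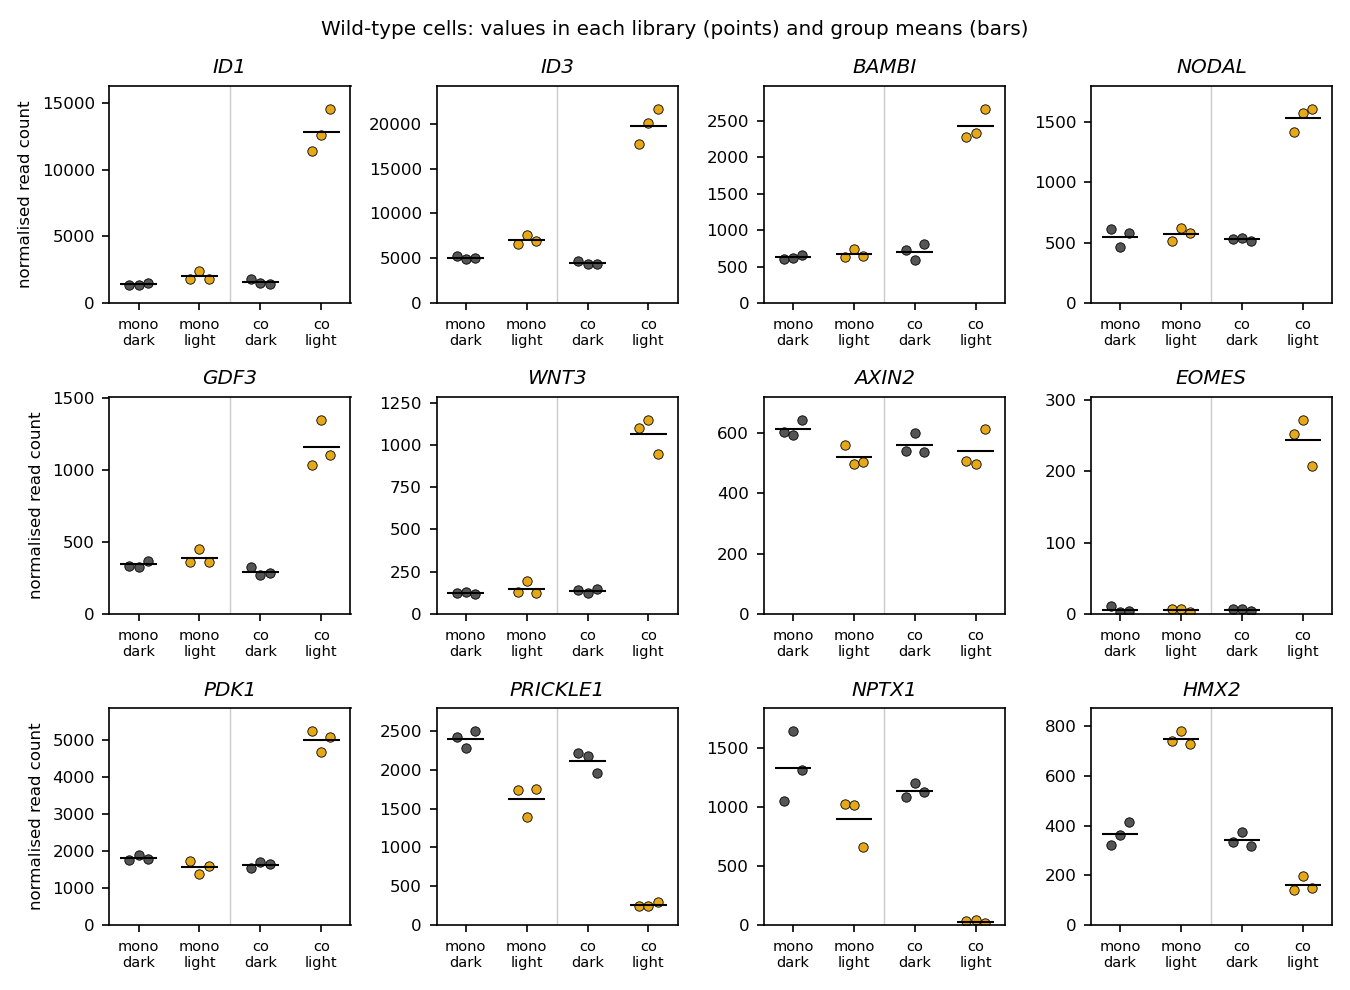
Normalised read counts of 12 genes in each of the 12 wild-type libraries (points), with group means (bars); grey is dark, yellow is light, and the left and right of each panel are monoculture (mono) and co-culture (co). The illuminated co-culture libraries stand apart from the other 9 in 11 panels, and AXIN2, whose difference did not pass the test, overlaps across groups. The 11 genes were picked among those that passed the test, so their separation follows largely from the choice. Over all tested genes the illuminated co-culture libraries lay above the other 9 for 5.49% and below them for 5.13%.

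Of 11 listed Wnt ligands 8 were tested, and 1, WNT3, was more positive in co-culture. The median difference of the 8 was -0.539, below 0, and the other 7 did not pass. Of the 8, 7 reached the filter without the illuminated co-culture libraries, WNT3 among them, and their median was -0.507. WNT3 (ENSG00000108379; GRCh38 chromosome 17, 46762506 to 46833154, minus strand) is the ligand tied to streak formation in the mammalian embryo. It stood at 122, 128 and 120.5 in dark and 131, 195 and 126 in illuminated monocultures. In co-culture it rose 7.75-fold, from 142, 125 and 145 to 1098, 1146 and 947, and its difference was 2.69 ± 0.23 (adjusted p = 7.83e-07). Receptors of the Frizzled family were looked at after their values were seen. FZD5 went from 4106, 3755 and 3607 to 6127, 5666 and 6234 in co-culture, with a difference of 0.898 ± 0.12 (adjusted p = 0.00011, and 0.185 in the fit of all 24 libraries). FZD10 reached 108, 81.9 and 112 from 36.3, 30.5 and 60.1, with a difference of 1.85 ± 0.41 (adjusted p = 0.0182), lost in 4 single-library fits (up to 0.0645) and without both low-GC libraries (0.0677). SFRP1, a secreted Wnt inhibitor, fell 2.03-fold in co-culture, from 27736, 28360.3 and 26727 to 13421, 13668 and 13627, against 28636, 28853 and 28412 and 28564, 23922 and 27570.2 in dark and illuminated monocultures. Its difference was -0.92 ± 0.10 (adjusted p = 1.51e-05).

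The β-catenin target list gave 3 calls among 16 tested genes, where 2.53% of all genes were called. Of 19 genes 16 were tested, 2 were more positive (BAMBI and CCND1), 1 was more negative (MYC), and the median difference was 0.204. Taken alone, the co-culture light effect passed upwards for 5 of the 16 and downwards for none. Over all genes, 3.02% passed upwards and 3.72% downwards. AXIN2, the standard feedback target, had 541, 598 and 535 in dark and 505, 495 and 613 in illuminated co-culture. Its difference was 0.18 ± 0.16 (adjusted p = 0.637). NKD1 and RNF43, which are also feedback inhibitors, did not pass either (adjusted p = 0.634 and 0.08), nor did the nuclear partner LEF1 at 26.3, 33.9 and 37.7 in illuminated co-culture (adjusted p = 0.98). SP5 behaved otherwise. It had 0, 8.71 and 0 in dark monocultures, 8.42, 11.4 and 0.799 in illuminated ones, 0.89, 5.39 and 5.01 in dark co-culture and 119, 143 and 160.3 in illuminated co-culture. Its co-culture effect passed (log2 5.08 ± 0.85, adjusted p = 0.000665) and its difference did not (3.598 ± 1.21, adjusted p = 0.15). Only the illuminated co-culture libraries carried SP5 past the filter on low values, so the filter favoured a call for its co-culture effect. The other 15 tested genes of the list had a median difference of 0.18. CCND1, a G1 cyclin, went from 4857, 4804 and 4643 to 8286, 8328 and 8393, with a difference of 0.69 ± 0.09 (adjusted p = 0.000129). MYC had a difference of -0.56 ± 0.12 (adjusted p = 0.0132), with monoculture values of 3378, 2910.1 and 3454 and 3758, 4173 and 3974 and co-culture values of 3973, 4128 and 3905 and 3049.5, 3389 and 3577. Neither of its own light effects passed, and the difference was lost without wt_dark 2 (0.0514) and without sorted_GFP_dark b (0.0526), and also without both low-GC libraries (0.0644).

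Of 13 listed genes of the primitive streak 8 were tested and 5 were more positive: EOMES, TBXT, MIXL1, CER1 and NODAL. Without EOMES, 4 of 7 were. EOMES, like MSX2 and the non-coding gene LINC02593, entered the test only through the illuminated co-culture libraries, as did 6 of the 252 genes in all, and for these the filter itself favoured a call. EOMES (ENSG00000163508; GRCh38 chromosome 3, 27715949 to 27722711, minus strand) had 11.01, 2.49 and 3.73 in dark monocultures, 6.89, 7.61 and 3.197 in illuminated monocultures and 7.08, 7.18 and 3.58 in dark co-culture. Under light in co-culture it had 253, 271 and 207, 41-fold more, and its difference was 5.004 ± 0.699 (adjusted p = 0.00031). Without both low-GC libraries EOMES fell below the filter and was not tested. TBXT (named T in the file; GRCh38 chromosome 6, 166157656 to 166168700, minus strand) reached 108, 114 and 135 from 6.195, 1.796 and 5.72, with a difference of 4.92 ± 0.82 (adjusted p = 0.00169). MIXL1, a streak homeobox gene, went from 50.4, 48.5 and 45.8 to 156, 143 and 171 (difference 1.75 ± 0.33, adjusted p = 0.00443). CER1, a secreted NODAL and BMP antagonist, reached 201, 141 and 151 from 46.9, 49.4 and 70.8. Because its monoculture values went from 59.2, 62.2 and 99.4 to 39.8, 40.9 and 48.8, its difference of 2.27 ± 0.35 (adjusted p = 0.000971) exceeded its co-culture effect of 1.55 ± 0.25. In bulk RNA a few cells with a high level cannot be told apart from many cells with a low one.

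The illuminated mCherry-sorted cells expressed streak and mesoderm genes at far higher levels, so RNA carried over in the sort was measured with genes that wild-type cells lack. There were 16 genes with a mean of at least 2000 in illuminated mCherry-sorted cells and below 3 in the other wild-type groups. Their rise in GFP-sorted cells under light was a median of 0.040% of the mCherry-sorted level. It was under 0.1% for 15 of them and 0.526% for WNT8A. PuroR, which only the engineered cells carry, had 6 reads in the illuminated and 10 in the dark GFP-sorted libraries and 0 in the monocultures. On the same scale, the rise was 0.41% of the mCherry-sorted level for TBXT, 0.16% for MIXL1, 2.66% for CER1, 4.11% for EOMES and 29.8% for WNT3. Only 3 of the 252 genes (GAD1, TBXT and MIXL1) had a rise under 1%, and 222 had at least 10%, with a median of 40.5%. These genes were chosen with the same GFP-sorted libraries, and the percent is large wherever the mCherry-sorted level is low, as for CDH6 (4511%). No such share is given for all tested genes, and the part of carry-over in the calls was not tested. Among marker genes of the illuminated neighbours, TBX6 stood at 146 in illuminated and 158 in dark co-culture. APLNR was at 76.2 and 21.8, DKK1 at 12.02 and 2.203, HAND1 at 4.65 and 0, and MSGN1 at 1.399 and 0.24. ID1 reached 11387, 12580.0 and 14523 in GFP-sorted cells under light, above the 3 mCherry-sorted libraries at 2223, 2320.05 and 9459.

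**Figure D3:**
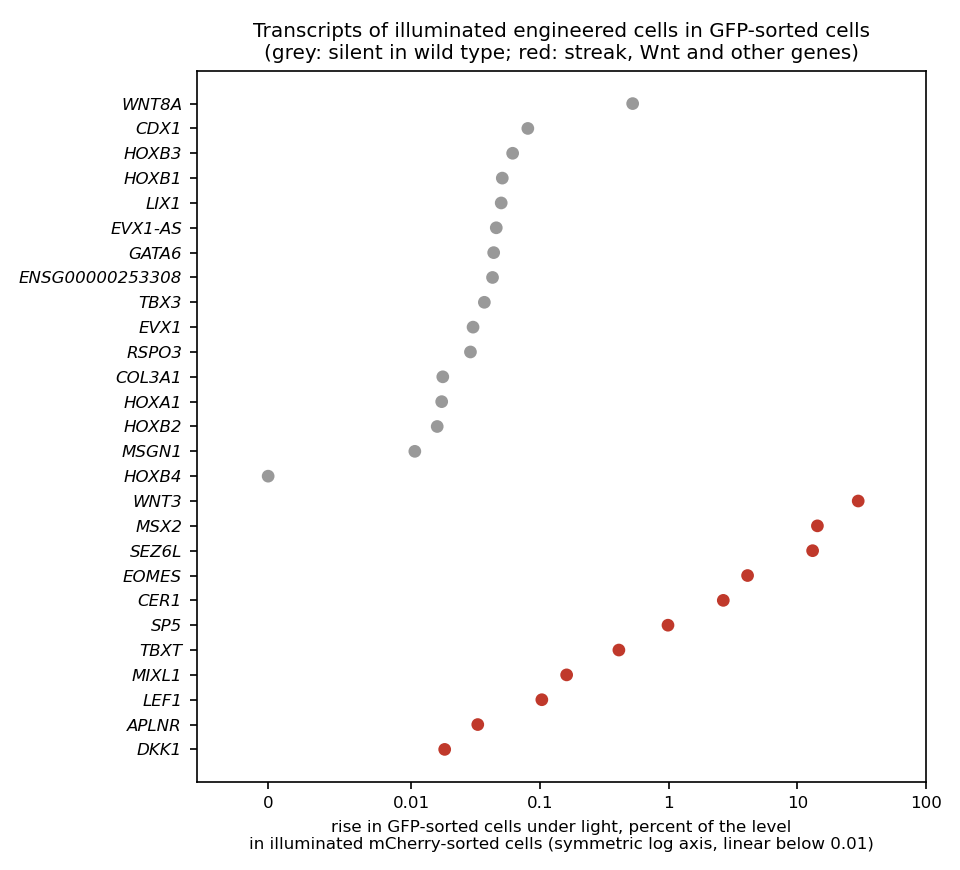
Rise of normalised counts in GFP-sorted cells under light, as a percent of the mean in illuminated mCherry-sorted cells (symmetric log axis, linear below 0.01). Grey points are 16 genes silent in wild-type cells, 15 of them under 0.1% and WNT8A at 0.526%; red points are streak, Wnt and other genes, among which EOMES (4.11%) and WNT3 (29.8%) lie above all grey points.

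Pluripotency genes stayed high. All 12 listed genes were tested, with 2 more positive, 1 more negative and a median difference of 0.169, and none passed without both low-GC libraries. NANOG went from 3833, 4251 and 3934 to 5989, 6361 and 6229 in co-culture and from 3660.0, 3720.4 and 3902 to 4261, 4598 and 4097 in monoculture. Its difference of 0.43 ± 0.102 (adjusted p = 0.0264) was lost in 8 single-library fits (up to 0.0899). PRDM14, a repressor of differentiation genes, had 1682, 1655 and 1665 and 2179, 2393 and 2641 in co-culture (difference 0.63 ± 0.13, adjusted p = 0.011; 0.0928 without the low-GC libraries). The third was TDGF1, given above. POU5F1 had 94453, 88278 and 91289 in dark and 99298, 105164 and 116639 in illuminated co-culture (difference 0.05 ± 0.11, adjusted p = 0.874). SOX2 had 8837, 8181 and 8692 and 7439, 7436 and 7437 (difference -0.11 ± 0.09, adjusted p = 0.63). By contrast, SOX2 was at 49.6 in the illuminated neighbours. POU5F1 and NANOG have processed pseudogenes that can share reads.

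Glycolysis and hypoxia genes formed the third group. All 16 listed were tested, 8 were more positive and none more negative, and the median difference was 0.427. Between 6 and 8 passed in every fit without 1 library, and 6 passed without both low-GC libraries. PDK1 (ENSG00000152256; GRCh38 chromosome 2, 172555373 to 172608669, plus strand) is a kinase that keeps pyruvate out of the mitochondrial cycle. It had 1767, 1896 and 1776 in dark and 1723, 1384 and 1593 in illuminated monocultures. In co-culture it rose 3.06-fold, from 1549, 1706 and 1644 to 5235, 4667 and 5085, with a difference of 1.83 ± 0.12 (adjusted p = 4.32e-08). PFKFB4, which raises the activator of phosphofructokinase, went from 701, 646 and 618 to 1577, 1779 and 1865 (difference 1.42 ± 0.15, adjusted p = 1.17e-05). The glucose transporter SLC2A1 went from 14919, 14618 and 13052 to 25059, 28921 and 28849 (difference 0.84 ± 0.103, adjusted p = 6.24e-05). BNIP3, a mitophagy receptor, reached 3239, 3151 and 4031 from 1706, 1864 and 1833 (difference 0.96 ± 0.16, adjusted p = 0.00194).

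Smaller shifts were seen in EGLN3, a prolyl hydroxylase of hypoxia-inducible factors, with a difference of 0.82 ± 0.15 (adjusted p = 0.00384), and LDHA, lactate dehydrogenase, with 0.62 ± 0.12 (adjusted p = 0.00631). PGK1 had a difference of 0.55 ± 0.12 (adjusted p = 0.0163, 0.0646 without wt_dark 2 and 0.0612 without both low-GC libraries), and PFKFB3 one of 0.59 ± 0.14 (adjusted p = 0.0253), lost in 5 single-library fits (up to 0.0923) and without both low-GC libraries (0.0503). LDHA and PGK1 have processed pseudogenes. SLC16A3, a lactate exporter outside the list, was among the 12 most positive differences, at 288, 442 and 266 and 181, 346 and 213 in dark and illuminated monocultures and 214, 159 and 219 and 820.3, 762 and 1362 in co-culture. Its difference was 2.72 ± 0.35 (adjusted p = 0.000104). BHLHE40, the 1 circadian-clock gene of 13 tested that passed, is also known to respond to low oxygen. It went from 188, 155 and 212 to 629, 634 and 383 in co-culture (difference 1.71 ± 0.27, adjusted p = 0.000933).

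**Figure D4:**
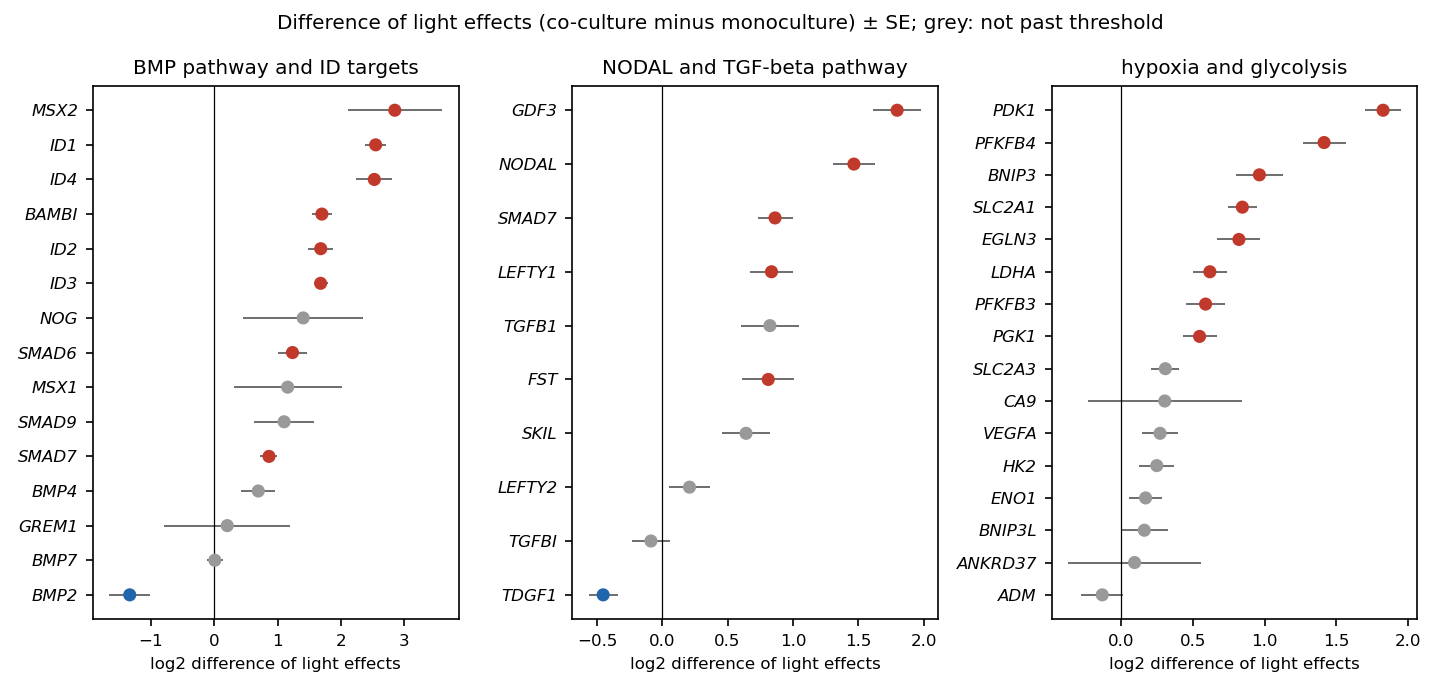
Log2 difference of light effects (co-culture minus monoculture) with its standard error for members of 3 gene lists (all tested ones for BMP and glycolysis, 10 of 12 for NODAL); red is more positive and blue more negative at an adjusted p under 0.05, grey did not pass. Red members number 8 of 15 in the BMP panel, 5 of 10 in the NODAL panel and 8 of 16 in the glycolysis panel.

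In other signalling lists fewer members passed. At the background of 2.53%, a list of 5 to 19 genes holds under 1 call, so a single call is not read as a result about its list. For FGF and ERK feedback, 17 genes were tested, 3 were more positive and 1 more negative (median 0.191). SPRY1, a feedback inhibitor, had 1270.0, 1161 and 1287 and 965, 879 and 989 in dark and illuminated monocultures and 1326, 1288 and 1118 and 1807, 1873 and 1994 in co-culture, a difference of 0.999 ± 0.13 (adjusted p = 0.000128). SPRY2 had 0.66 ± 0.12 (adjusted p = 0.00318) and IER3 0.599 ± 0.11 (adjusted p = 0.00507), while PHLDA1 had -0.85 ± 0.12 (adjusted p = 0.000342). In the Notch list of 12, all tested, 2 targets were more positive and 2 Delta-like genes more negative (median 0.367). HEY1 rose from 56.6, 70.03 and 72.98 to 317, 296 and 243 in co-culture (difference 1.87 ± 0.29, adjusted p = 0.00107). HES1 had a difference of 1.22 ± 0.26 (adjusted p = 0.0141), lost in 4 single-library fits (up to 0.0546) and in the fit of all 24 libraries (0.265). The Delta-like genes DLL3, from 651, 543 and 574 to 216, 266 and 249, and DLL1, from 275, 301 and 241 to 135, 96.1 and 102, fell. Their differences were -1.37 ± 0.18 (adjusted p = 0.000212) and -1.25 ± 0.24 (adjusted p = 0.00697, and 0.0779 without both low-GC libraries). DLL1 and DLL3 were also the 2 genes that passed, both more negative, among 8 tested of the paraxial and posterior mesoderm list (median -0.347). Of the 8, 7 reached the filter without the illuminated co-culture libraries, and their median was -0.122. In the neighbours DLL1 and DLL3 were at 6545 and 37718. EFNB2, an ephrin ligand, was the 1 call among 12 Eph receptors and ephrins (median 0.117; difference 0.91 ± 0.14, adjusted p = 0.00069).

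Of 13 tested collagen, laminin and fibronectin genes, 3 were more positive (median 0.218). FN1 had a difference of 0.93 ± 0.17 (adjusted p = 0.00395), LAMB1 of 0.60 ± 0.12 (adjusted p = 0.00697, and 0.0981 without both low-GC libraries) and LAMA1 of 0.66 ± 0.16 (adjusted p = 0.0312, lost in 6 single-library fits, up to 0.112). The library wt_light 2 was low for all 3: FN1 had 5986, 3822 and 5641 in the illuminated monocultures, against 8770.4, 9663 and 10193 in illuminated co-culture. VCAN, a matrix proteoglycan, had 17035, 9344 and 16008 there and 39552, 35643 and 33193 in illuminated co-culture, with a difference of 1.39 ± 0.21 (adjusted p = 0.000648). HAS2, which makes hyaluronan, rose 4.36-fold in co-culture, from 199, 193 and 231 to 967, 907 and 841 (difference 1.94 ± 0.203, adjusted p = 1.05e-05). In the mesenchymal list, 9 of 13 were tested and FN1 and CDH2 (N-cadherin) were more positive (median 0.261). CDH2 went from 2491, 2508 and 2487 to 3437, 3511 and 3645 (difference 0.63 ± 0.11, adjusted p = 0.00341). Among 16 epithelial junction genes (median -0.15), CDH1 (E-cadherin) had a difference of 0.42 ± 0.10 (adjusted p = 0.0293), CLDN3 of -0.77 ± 0.18 (0.028) and CLDN4 of -0.65 ± 0.16 (0.0303). These 3 were lost in 8, 7 and 6 single-library fits, at adjusted p up to 0.103, 0.0886 and 0.104. In the adhesion and crowding list of 13 (median 0.147), ICAM1 had -0.997 ± 0.21 (adjusted p = 0.0132), L1CAM 0.62 ± 0.14 (0.0195) and CD44 0.74 ± 0.18 (0.0323). L1CAM was lost in 4 and CD44 in 8 single-library fits (up to 0.0695 and 0.111). Without both low-GC libraries, LAMA1 (0.204), CDH1 (0.142), CLDN3 (0.154), CLDN4 (0.171), L1CAM (0.0997) and CD44 (0.113) did not pass either.

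Several of the lowest p-values belonged to genes whose light effect was more negative in co-culture. PRICKLE1 (ENSG00000139174; GRCh38 chromosome 12, 42456757 to 42590355, minus strand), a planar cell polarity protein, had 2418, 2282 and 2496 in dark monocultures, 1742, 1394 and 1750.2 in illuminated ones, 2212, 2174 and 1955 in dark co-culture and 241, 243 and 294 in illuminated co-culture. It fell 8.16-fold in co-culture, and the difference was -2.46 ± 0.15 (adjusted p = 2.94e-08). Its monoculture values were also lower under light, with an effect of -0.56 ± 0.11 (adjusted p = 0.0502). NPTX1 (ENSG00000171246; GRCh38 chromosome 17, 80467148 to 80477843, minus strand), a secreted neuronal pentraxin, went from 1079.7, 1204 and 1128 to 33.8, 38.6 and 14.8 in co-culture, 39.1-fold, against 1047, 1640.5 and 1310.2 and 1022, 1014 and 663 in dark and illuminated monocultures. Its difference was -4.78 ± 0.36 (adjusted p = 1.42e-07). EMX1, a forebrain homeobox gene, fell 4.62-fold in co-culture, from 758, 705 and 668 to 149, 154 and 158, with 607, 669.6 and 626 and 691, 657 and 657 in monocultures (difference -2.28 ± 0.15, adjusted p = 2.94e-08). RIPOR2 (FAM65B in the file) went from 1041, 1034 and 868 to 253, 262 and 259 (difference -2.20 ± 0.14, adjusted p = 2.94e-08). RAB17, a small GTPase of epithelial transport, went from 3640.1, 3313 and 3237 to 1038, 1128 and 1016 (difference -1.72 ± 0.12, adjusted p = 5.12e-08). LRIG1, a restraint on growth factor receptors, went from 10367, 9609 and 8869 to 3332, 3547 and 3480.2 (difference -1.304 ± 0.105, adjusted p = 3.34e-07). In all of these the 3 illuminated co-culture libraries lay below the other 9. These genes, like ID1, ID2, ID4 and NODAL above, were chosen with these same libraries, so their separation follows largely from the choice. Over all tested genes the illuminated co-culture libraries lay below the other 9 for 5.13% and above them for 5.49%.

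Among the 12 most negative differences, IL17C, a cytokine, nearly vanished under light in co-culture. It had 102, 93.4 and 107 and 113, 144 and 91.9 in dark and illuminated monocultures, 74.3, 59.3 and 62.2 in dark co-culture and 1.504, 1.88 and 0 under light, 4 reads in all (difference -5.28 ± 0.51, adjusted p = 3.41e-06). CUZD1 went from 639.9, 870.0 and 688 to 75.9, 83.8 and 32.3 (difference -3.75 ± 0.34, adjusted p = 2.19e-06). GADD45G, a stress-response gene, went from 361, 400.4 and 385 to 33.1, 34.9 and 36.4 (difference -3.02 ± 0.23, adjusted p = 1.28e-07). FOXJ1, the regulator of motile cilia, went from 422, 493 and 474 to 80.4, 55.6 and 66.02 (difference -2.87 ± 0.21, adjusted p = 1.22e-07). GABRP, a GABA receptor subunit used here as an amnion marker, went from 493, 587 and 565 to 92.5, 93.2 and 67.4 (difference -2.63 ± 0.21, adjusted p = 3.58e-07). BNC1, ATP10B, BRINP2 and ISLR2 were less abundant genes of the same kind, with means of 75.8 or less in dark co-culture except for ATP10B at 92.0. Their differences were -3.68, -3.55, -3.44 and -2.97. TTN and MAP1LC3C completed the 12, with differences of -2.74 ± 0.66 and -2.58 ± 0.61 (adjusted p = 0.0307 and 0.0278). They were lost in 7 and 8 of the single-library fits, at adjusted p up to 0.112 and 0.0882, and without both low-GC libraries (0.101 and 0.136).

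Several of the 12 most positive differences belonged to genes outside the lists. SEZ6L, a neuronal membrane protein, was at 235, 307 and 256 in illuminated co-culture and 11.5, 10.8 and 15.03 in the dark (difference 4.68 ± 0.46, adjusted p = 5.3e-06). CDH6, a cadherin, reached 444, 401 and 352 from 30.98, 32.3 and 21.5 (difference 3.16 ± 0.47, adjusted p = 0.000691), although its mean was only 8.22 in the illuminated neighbours. SAMD11 reached 217, 170.5 and 166 from 8.85, 13.5 and 12.9 (difference 4.54 ± 0.74, adjusted p = 0.0014). The neighbouring non-coding gene LINC02593 (RP11-54O7.3 in the file; GRCh38 chromosome 1, 916865 to 921016, minus strand; SAMD11 lies at 923928 to 944581 on the plus strand) had 73.7, 63.1 and 39.1 against 0.89, 1.796 and 0. The latter values rest on 3 reads, and no fold is given. It entered the test only through the illuminated co-culture libraries, so the filter favoured a call. Its difference of 5.55 ± 1.26, the highest of the named genes, was past the threshold (adjusted p = 0.0203), but not without wt_dark 2 (0.066) or sorted_GFP_dark c (0.0584). Only 9 of the 12 single-library fits tested LINC02593. It was not tested without both low-GC libraries, or without wt_light 2 and sorted_GFP_light a. PCAT14, a non-coding RNA, went from 29.2, 52.97 and 82.3 to 329, 251 and 146 (difference 3.21 ± 0.49, adjusted p = 0.000821). In monoculture PCAT14 went from 37.2, 29.9 and 28.6 in the dark to 16.8, 14.3 and 13.6 under light, a fall that adds to this difference. FLRT1 went from 13.3, 8.08 and 23.6 to 88.7, 90.4 and 97.01 (difference 2.63 ± 0.58, adjusted p = 0.0163), lost without wt_dark 3 (0.0532) and sorted_GFP_dark b (0.055), and without both low-GC libraries (0.0805). Among more abundant genes, VAT1L went from 2967, 3122 and 2811 to 8872, 9915 and 10372 (difference 1.56 ± 0.11, adjusted p = 1.06e-07). The RNA-decay factor ZFP36L2 went from 1800.1, 1712 and 1506 to 5474, 5463 and 6553 (difference 1.92 ± 0.15, adjusted p = 3.07e-07). Both were chosen after their values were seen.

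The remaining lineage and stress lists held at most 3 calls each. SOX3, a neural and pluripotency factor, was the 1 of 8 tested neural genes that passed (median -0.035), from 1354, 1248 and 1141 to 434, 536 and 578 in co-culture (difference -1.17 ± 0.16, adjusted p = 0.000314; 0.152 in the fit of all 24 libraries). In the amnion list, 5 of 9 were tested and GABRP and KRT7 were more negative (median -0.26). Of the 5, 3 reached the filter in the other libraries alone, without the illuminated co-culture, and their median was -0.89. KRT7 had a difference of -0.89 ± 0.18 (adjusted p = 0.00777; 0.238 with 24 libraries). GATA3, on the same list, had a mean of 62.5 in illuminated and 9.26 in dark co-culture. Its co-culture effect passed (adjusted p = 0.00667) and its difference did not (2.33 ± 0.81, adjusted p = 0.172). GATA3 entered the test only through the illuminated co-culture libraries, so the filter favoured a call for its co-culture effect. Of 5 tested lateral and cardiac mesoderm genes (median 0.472), TNNT2 was more negative (difference -1.17 ± 0.26, adjusted p = 0.0178), lost in 4 single-library fits (up to 0.0623) and without both low-GC libraries (0.0572). CER1 was the 1 call among 5 definitive endoderm genes (median 1.06). Of the 5, 4 reached the filter without the illuminated co-culture libraries, and their median was 0.775. The endoderm marker SOX17 had 0 reads in both co-culture groups. Of 13 p53 targets (median -0.335), GDF15 and RRM2B were more negative, with differences of -1.63 ± 0.29 (adjusted p = 0.00322) and -0.82 ± 0.15 (adjusted p = 0.00464). CDKN1A did not pass (difference -0.38 ± 0.13, adjusted p = 0.179).

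Of 8 oxidative stress genes (median -0.138), HMOX1 and OSGIN1 were more negative. HMOX1 had 1463, 1350.5 and 1515 and 1655, 2141 and 1991 in dark and illuminated monocultures and 1360.3, 1432 and 1433 and 1143, 1215 and 1227 in co-culture (difference -0.65 ± 0.13, adjusted p = 0.011, and 0.0679 without both low-GC libraries). For OSGIN1 the difference was -1.73 ± 0.38 (adjusted p = 0.0163), lost without wt_dark 2 (0.05) and sorted_GFP_dark c (0.0584). Neither gene had a light effect of its own past the threshold in either culture. CHAC1 was the 1 call of 12 in the unfolded protein list (median -0.205; difference -0.57 ± 0.13, adjusted p = 0.0175), lost in 3 single-library fits (up to 0.0667). PSMB9 was the 1 of 13 interferon genes (median -0.143; difference -1.24 ± 0.29, adjusted p = 0.0246), lost in 6 (up to 0.0752) and without both low-GC libraries (0.0532). Among 19 immediate early genes (median -0.029), KLF10 and FOS were more positive and MYC more negative. KLF10, also induced by TGF-β, went from 690.3, 690.4 and 588 to 1364, 1397 and 1320.4 (difference 0.96 ± 0.15, adjusted p = 0.000793). FOS had 222, 232 and 235 in dark monocultures, 744, 504 and 461 in dark co-culture and 1374, 1088 and 1928 in illuminated co-culture. It was the 1 gene of the 4 that already differed between the dark groups to pass, with a difference of 1.05 ± 0.26 (adjusted p = 0.0344), lost in 8 single-library fits (up to 0.119).

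No gene passed in the lists for heat shock (14 tested, median -0.131), cold-inducible and splicing kinase genes (12, 0.02), cholesterol and fatty acid synthesis (18, 0.229), proliferation and replication (16, 0.065), naive pluripotency (7, 0.184), YAP and TEAD targets (11, 0.279), neural crest (5, 0.059) and endothelium and blood (5, 0.197). These medians are log2 differences, beside -0.004 for all genes. Of the 5 neural crest genes, 4 reached the filter without the illuminated co-culture libraries, and their median was -0.133. With 2.53% of all genes called, no call in lists of 5 to 18 genes is no result about them.

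In monoculture 12 genes differed between illuminated and dark libraries, and for 3 of them the light effect also differed between cultures. Depth ran with light in these monocultures, and its part in the 12 was not tested. HMX2 (ENSG00000188816; GRCh38 chromosome 10, 123148122 to 123150672, plus strand), a homeobox gene, moved in opposite directions. It rose from 321, 361 and 415 to 739, 779.6 and 729 in monoculture (log2 1.04 ± 0.14, adjusted p = 0.00683) and fell from 335, 376 and 318 to 141, 197 and 151 in co-culture (log2 -1.08 ± 0.14, adjusted p = 4.73e-05). The difference was -2.12 ± 0.20 (adjusted p = 2.87e-06). NKX1-2, also a homeobox gene, rose in both, from 804, 849 and 917 to 1179.8, 1220.3 and 1235 and from 832, 875 and 829 to 1814, 1630.4 and 1831. Its difference of 0.55 ± 0.12 (adjusted p = 0.0179) was lost without wt_dark 3 (0.0654) and without sorted_GFP_dark c (0.0552). ID3, given above, was the third. For the phosphatases DUSP5 and DUSP6, which switch off ERK, the monoculture effects were 0.56 ± 0.09 and 0.40 ± 0.07 (adjusted p = 0.0183 and 0.0293), and their differences did not pass (adjusted p = 0.322 and 0.323). RBM3, a cold-inducible RNA-binding protein, had 6507, 6202 and 6924 in dark and 4206, 5142 and 4746 in illuminated monocultures and 5615, 6003 and 5825 and 5247, 4937 and 4799 in co-culture. Its difference of 0.26 ± 0.11 did not pass (adjusted p = 0.281).

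A list of 14 genes shifted by light in wild-type monocultures, taken from an earlier account of these same libraries and so not independent of them, had a median difference of 0.264. Apart from ID3 and PRICKLE1, none of its members passed. Examples were ACSS2, which makes acetyl-CoA, at 2557, 2499 and 2583 and 1763, 1586 and 1584 in dark and illuminated monocultures and 3103, 2779 and 3254 and 2549, 2616 and 2532 in co-culture (difference 0.39 ± 0.11, adjusted p = 0.0802), the splicing kinase CLK1 (difference 0.68 ± 0.22, adjusted p = 0.144) and LRIG2 (difference 0.33 ± 0.15, adjusted p = 0.327). A difference that misses the threshold does not show that the 2 light effects were equal.

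At the threshold itself, the last 5 genes to pass, all lost without both low-GC libraries, were ARHGAP28, PKD1L1, ING4, MSX2 and CAVIN3 (PRKCDBP in the file), with adjusted p of 0.0483 to 0.049 and differences of 0.83, -2.27, -0.504, 2.85 and -0.71. The 5 just outside were PYURF, PLEKHG3, ATP6V0E1, DOCK5 and MT-RNR1, with adjusted p of 0.0502 to 0.0519 and differences of -0.55, -0.45, -0.43, 0.62 and 0.71.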

How the data were processed

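RNA of H9 cells was prepared with a stranded mRNA kit, per the labels' protocols. Per the submitters' processing notes, reads went through FastQC and cutadapt, Bowtie2 and STAR, then HTSeq and DESeq, on build GRCh38. The deposited sample table instead has hg19 plus 4 construct genes in its header. Coordinates here are GENCODE 29 positions (GRCh38), looked up by Ensembl ID. No source used here gives the strand setting of the counting or how reads shared between copies were handled.

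The deposited values are a signal: normalised read counts, each a whole read count divided by 1 factor per library (all values whole within 0.01 after multiplying). The sample table deposited by the authors gives total read counts, percent GC and percent aligned, and an RNA integrity score, which was 8.2 to 10 in the 12 libraries. Monoculture columns were tied to replicates 1 to 3. Co-culture columns were tied only to their group and are called a, b and c. Rows of the sample table were joined to columns by the authors' library names. The genotype tags of the monoculture labels name the opposite genotype to the titles. The titles were used, which go with the construct reads.

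A limma 3.58.1 trend model (R 4.3.3) was fitted to log2(value + 1) of the 12 libraries, for genes at 10 or more in at least 3. Fold changes of low genes are understated on this scale. The difference of light effects and each culture's own effect were tested with Benjamini-Hochberg adjustment over 18913 genes. A value ± SE is a log2 difference, and folds are ratios of group means. The script was tested on simulated data. Alternatives were edgeR 4.0.16, DESeq2 1.42.0, other pseudocounts, filters and scalings, and leaving out libraries. Of the 28297 IDs, 27908 had a current symbol. Promoter sequences are RefSeq's (GRCh38.p14). No source states that replicates were separate cultures, so p-values measure the spread between these libraries.

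The 34 gene lists, the genes and the comparison were chosen with earlier results of these data known. Genes named are the 12 largest differences in each direction that passed the test, with a symbol and a group mean of 50 or more, up to 4 members per direction of each list, the 14 light-shifted genes, 5 genes on each side of the threshold and marker genes. A further 2 genes that meet this rule are not reported here, though list counts include them. RIPOR2, RAB17, LRIG1, EMX1, VAT1L, ZFP36L2, VCAN, HAS2, SFRP1, FZD5, FZD10, HMX2, NKX1-2, further members of the BMP, NODAL, Wnt and hypoxia lists, POU5F1 and SOX2 were added after their values were seen.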

Additional observations from a re-analysis of the deposited data

Results flagged for a closer look

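The light effect differed between the cultures, by the test of the difference itself, for 478 genes. Among them, 3 had a light effect past the threshold in both cultures: ID3 (log2 difference 1.68), HMX2 (-2.12, with opposite directions in the 2 cultures) and NKX1-2 (0.55). PuroR, which the monocultures lack, had 16 reads over the 6 GFP-sorted libraries, 10 of them in the dark ones, and its part in the results was not tested beyond the percentages given above.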

How the results depend on the processing

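Across 25 alternatives, the 99 named genes past the threshold kept their direction, and 61 of them passed in all alternatives that gave a value. Counts of more positive and more negative genes were 252 and 226. They became 413 and 367 with DESeq2, which gave no adjusted p for some genes, and 1303 and 1314 with array weights. Fits without 1 library gave 153 to 321 and 138 to 267. A further 2 alternatives were chosen after seeing the data: 109 and 104 without both low-GC libraries, and 621 and 626 without wt_light 2 and sorted_GFP_light a. Other pseudocounts, filters, scalings, thinning to equal depth, edgeR (255 and 238) and the fit of all 24 libraries (287 and 180) stayed within 1.5 times. The causes were not tested. A replicate block was possible for the monocultures alone and gave 260 and 207, but same-numbered libraries did not deviate together (correlations of 0.023, -0.047 and -0.004). Sign changes occurred only for genes whose difference did not pass. IER2 became 0.049 with array weights and 0.095 without wt_light 2 and sorted_GFP_light a, and ran from -0.121 to 0.052 without 1 library. NKD1 became -0.009 with array weights. LEF1 became -0.070 without both low-GC libraries and ran from -0.074 to 0.188 without 1 library. POU5F1 ran from -0.013 to 0.103. On depth, LINC02593 had 5, 2 and 3 reads in wt_dark, wt_light and sorted_GFP_dark and an SE of 1.26 on the log2 scale, against 0.16 for ID1.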
